A study of Zea mays with 6 samples.

Results

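A set of 173 nuclear genes of maize (Zea mays) was lower in anthers of the zmrpn1 mutant than in wild-type (WT) anthers, out of 46430 rows in the count table. The data are RNA-seq counts from anthers labelled as stages S3 to S5, from 3 zmrpn1 libraries and 3 WT libraries. The zmrpn1 group carries the zmrpn1-1 allele, which the titles link to Mutator (mobile DNA elements whose insertions can disrupt maize genes), and is labelled as a knockout of ZmRPN1 (genotype code aa); the WT group has genotype code AA. The labels give no age, inbred line or pooling of plants, and do not say whether the WT plants were relatives of the mutants or whether each library is a separate plant. The spread between libraries may therefore be technical in part.

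Genes were chosen on their CPM, the count of a gene scaled to the total of its library. A gene was taken when its WT mean lay between 20 and 300 CPM, its zmrpn1 mean was above 0.5 CPM and at most 0.77 times the WT mean, and all 3 zmrpn1 values lay below all 3 WT values. Of 44146 nuclear rows, 10673 lay in that WT range, and 10586 were left after removal of a pair of identifier ranges, Zm00001d021621 to Zm00001d021845 and Zm00001d035236 to Zm00001d035526. Of these, 174 were at or below 77% of WT and 173 also had groups that did not overlap, which is 1.63% of the genes in the range. Level, ratio and direction were thus fixed by the choice, and they are given as a description with no test.

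An anther is the part of the flower in which pollen forms: cells at its centre enter meiosis, and the wall layers around them, with the tapetum innermost, supply them with material. RNA from a whole anther is a mixture of all these cell types, so a lower level can mean fewer cells of a type or less RNA in each cell, which cannot be told apart here. The count table gives nuclear genes by identifier only, and the reference table of maize genes paired 0 of the 173 identifiers with a name. The genes are therefore described by identifier, with no function attached and no sequence shown. CPM values are not corrected for gene length, so they compare the same gene between libraries and do not rank the genes by transcript abundance.

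Library totals ran from 18724037 to 26000578 counts in zmrpn1 and from 16203290 to 29515176 in WT. The labels do not give the identifier of ZmRPN1 itself, so the targeted gene offered no check of the genotypes. Markers of the anther's cell types could not be checked either, since their names are not paired with nuclear identifiers. Of 23477 genes tested with edgeR's quasi-likelihood test, 5.82% were called lower and 6.63% higher in zmrpn1 (threshold 0.05 on the Benjamini-Hochberg adjusted p), and 172 of the 173 genes were among them. In the WT range of 20 to 300 CPM, 12.5% of all genes had zmrpn1 values entirely below the WT values. The choice used this same contrast, so nothing is read from the share of the chosen genes that was called.

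Summed over the 173 genes, the levels were 7364, 7380 and 7384 CPM in the zmrpn1 libraries and 12678, 12333 and 12347 CPM in the WT libraries. The means were 7376 ± 10.5 CPM in zmrpn1 and 12453 ± 195 CPM in WT (SD, n = 3 each). The 3 zmrpn1 sums lay close to each other, on 3 values only. Their place below the WT sums was fixed by the rule. The median gene stood at 63.5% of its WT mean, a log2 ratio of -0.65, and the interquartile range ran from 49.6% to 71.4%. Over all 10586 genes in the WT range the median was 100.3%, with an interquartile range from 95.8% to 105.2%.

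**Figure D1:**
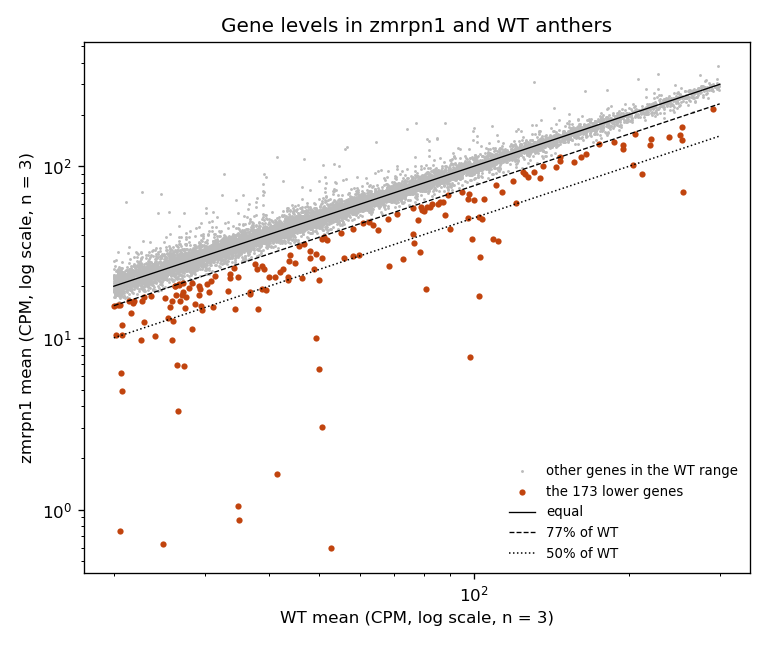
Mean CPM in zmrpn1 (vertical, log scale) against mean CPM in WT (horizontal, log scale) for the genes at 20 to 300 CPM in WT, n = 3 libraries each; orange points are the 173 lower genes, grey points the others, and the lines mark equal levels, 77% and 50% of WT. Most orange points lie between the 77% and 50% lines, and 14 lie at 25% of WT or less.

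The falls were mostly modest, but not all. Between 50% and 77% of WT there were 128 of the 173 genes, of which 54 lay above 70%, 47 above 60% and up to 70%, and 27 above 50% and up to 60%. The remaining 45 genes were at 50% of WT or less, 14 of them at 25% or less and 6 at 5% or less. A description of the whole set as modestly lowered therefore fits 128 genes and not the other 45. With the same rule turned upwards, 176 genes of the WT range were higher in zmrpn1 by the matching fold, of which 19 were at least doubled and 0 were raised 4-fold or more. The range was set on the WT level in both directions, so genes that start low in WT and rise far could not enter, and the difference between these distributions was not tested.

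The gene furthest below WT was Zm00001d051938. It had 0.587, 0.576 and 0.615 CPM in the zmrpn1 libraries, against 53.6, 55.5 and 49.5 CPM in the WT libraries, which puts zmrpn1 at 1.12% of WT (89.2-fold lower). These levels rest on 11, 12 and 16 counts in zmrpn1 and on 1097, 899 and 1462 counts in WT. A small number of reads thus remained in every zmrpn1 library. Their SD in CPM was 3.40% of the mean, while counting error alone would give 27.7%. The evenness of the 3 values therefore does not measure the true spread.

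Zm00001d007765 had 1.23, 0.576 and 0.808 CPM in zmrpn1, against 34.9, 33.6 and 36.5 CPM in WT, or 2.49% of WT. Zm00001d027924 had 0.587, 1.01 and 0.654 CPM in zmrpn1, against 23.0, 18.0 and 20.6 CPM in WT, or 3.65% of WT. Zm00001d010588 had 1.98, 1.297 and 1.58 CPM in zmrpn1, against 45.3, 40.9 and 38.2 CPM in WT, or 3.90% of WT. In all of them the highest zmrpn1 library was far under the lowest WT library, and the zmrpn1 values rest on 11 to 41 counts per library.

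Zm00001d045391 and Zm00001d045392 are neighbouring rows of the count table and fell by nearly the same factor. Zm00001d045391 had 0.694, 0.816 and 0.385 CPM in zmrpn1, against 26.5, 23.4 and 25.004 CPM in WT, or 2.53% of WT. Zm00001d045392 had 0.961, 1.297 and 0.885 CPM in zmrpn1, against 35.0, 34.6 and 34.7 CPM in WT, or 3.01% of WT. Near them, 14 tested genes before Zm00001d045391, lies Zm00001d045361, which had 8.65, 7.88 and 6.65 CPM in zmrpn1, against 100.3, 97.1 and 97.9 CPM in WT, or 7.85% of WT. The 3 genes are thus all among the 8 at 10% of WT or less. Of the 13 other tested genes in the stretch that they span, 2 were called lower and 0 higher, and their median log2 change was -0.08. The strand setting of the counting is not stated in the sources at hand, so neighbouring genes that overlap could share reads.

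The other genes at 25% of WT or less began at higher remaining levels. Zm00001d028651 averaged 3.04 ± 0.609 CPM in zmrpn1 and 50.8 ± 4.21 CPM in WT (SD, n = 3 each), or 5.98% of WT. Zm00001d012221 averaged 6.55 ± 0.889 CPM in zmrpn1 and 50.02 ± 1.88 CPM in WT, or 13.1%, and Zm00001d031158 averaged 3.72 ± 0.481 CPM in zmrpn1 and 26.6 ± 1.51 CPM in WT, a 7.14-fold lower level. Both still had at least 66 counts in each zmrpn1 library. Zm00001d030915 averaged 17.6 ± 1.06 CPM in zmrpn1 and 102 ± 6.505 CPM in WT, or 17.2%. The last 3, Zm00001d013945, Zm00001d000133 and Zm00001d021901, stood at 20.3%, 23.6% and 23.8% of WT.

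**Figure D2:**
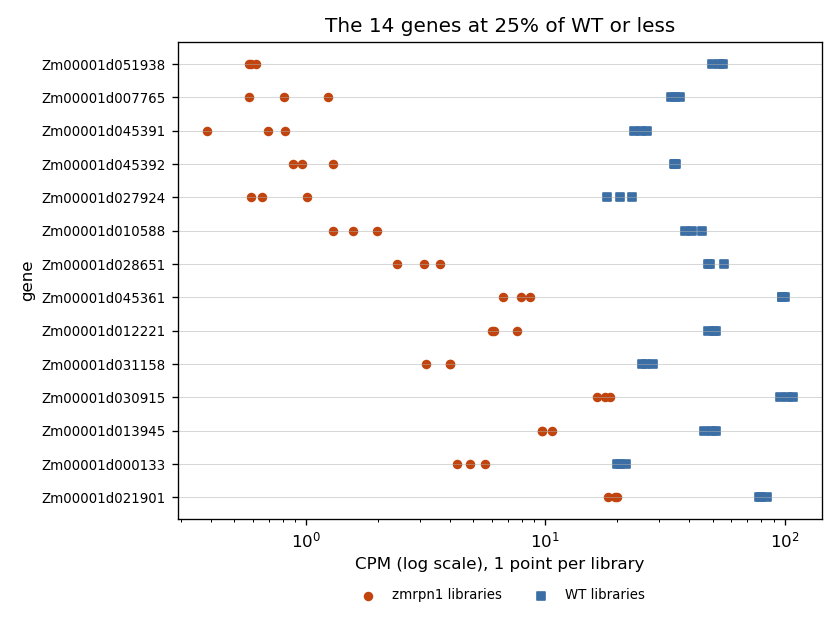
CPM (log scale) in each library for the 14 genes at 25% of WT or less, sorted with the lowest ratio at the top; orange circles are the 3 zmrpn1 libraries and blue squares the 3 WT libraries. The groups are far apart in every gene, and the zmrpn1 points run from 0.385 CPM in Zm00001d045391 to 19.96 CPM in Zm00001d021901.

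The genes with the highest WT values fell by different amounts. Zm00001d016705 had 72.9, 67.2 and 72.7 CPM in zmrpn1, against 267, 245 and 252 CPM in WT, or 27.8% of WT. Zm00001d052493 had 136, 138 and 151 CPM in zmrpn1, against 268, 245 and 248 CPM in WT, or 55.8% of WT. Zm00001d017622, with the highest WT mean of the set, had 211, 206 and 226 CPM in zmrpn1, against 304, 285 and 285 CPM in WT, or 73.6% of WT. In all of them the groups were parted by more than the range within either group.

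Zm00001d017121 had 152, 151 and 155 CPM in zmrpn1, against 252, 250 and 251 CPM in WT, or 60.7% of WT. Zm00001d004006 had 144.6, 144.0 and 145.1 CPM in zmrpn1, against 219, 222 and 221 CPM in WT, or 65.5% of WT. These, with Zm00001d045392 and Zm00001d045361, had the widest gap between groups for their spread: the lowest WT value exceeded the highest zmrpn1 value by 61.8 times the pooled standard deviation in Zm00001d017121 and by 66.8 times in Zm00001d004006. In WT the SD was 0.440% of the mean in Zm00001d017121 and 0.669% in Zm00001d004006. Counting error alone would give 1.34% and 1.43%. In zmrpn1 the SD of Zm00001d004006 was 0.368% of the mean, against 1.78% from counting error. The multiples thus rest on SDs of 3 values below counting error, and their size does not measure the true separation. Zm00001d051001 and Zm00001d032386 completed the 6 genes of highest WT level, at 66.3% and 61.7% of WT.

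By WT level, the share of genes in the range that belonged to the set was 1.59% between 20 and 50 CPM (90 of 5652), 1.42% between 50 and 100 CPM (44 of 3098), 1.87% between 100 and 200 CPM (28 of 1499) and 3.26% between 200 and 300 CPM (11 of 337). The median percent of WT in these classes was 60.5%, 69.6%, 68.4% and 60.7%. At 50% of WT or less were 26 of 90, 11 of 44, 6 of 28 and 2 of 11 members, or 28.9% in the lowest class and 18.2% in the highest, so members with a large fall made up less of the set in each higher class, on few genes at the top. The median did not follow that order. All 6 genes at 5% of WT or less had WT means between 20.5 and 52.9 CPM.

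Other genes had a narrow gap between groups, measured as a multiple of the pooled standard deviation. Zm00001d020037 had 14.3, 15.0 and 17.3 CPM in zmrpn1, against 23.0, 20.6 and 17.4 CPM in WT, with 0.141 CPM between the groups. Zm00001d032030 had 25.8, 26.7 and 23.4 CPM in zmrpn1, against 30.6, 35.6 and 47.7 CPM in WT, and it was the gene of the set that edgeR did not call. Its WT values had a coefficient of variation (CV, the SD as a percent of the mean) of 23.2%, the highest of the set in WT. Zm00001d006022 and Zm00001d012301 had the next narrowest gaps on that measure, at 76.8% and 76.0% of WT.

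For most genes the libraries of a group were close. The median CV was 5.26% in zmrpn1 and 4.93% in WT, while counting error alone at the mean count would give medians of 4.18% in zmrpn1 and 3.05% in WT. Over all genes of the range the median CV was 4.72% in zmrpn1 and 4.39% in WT. In 121 of the 173 genes the highest zmrpn1 value was at or below 77% of the lowest WT value, so that all 9 pairs of a zmrpn1 with a WT library passed the limit. The 45 genes at 50% of WT or less all did so, with at most 57.1% between the highest zmrpn1 and the lowest WT value.

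**Figure D3:**
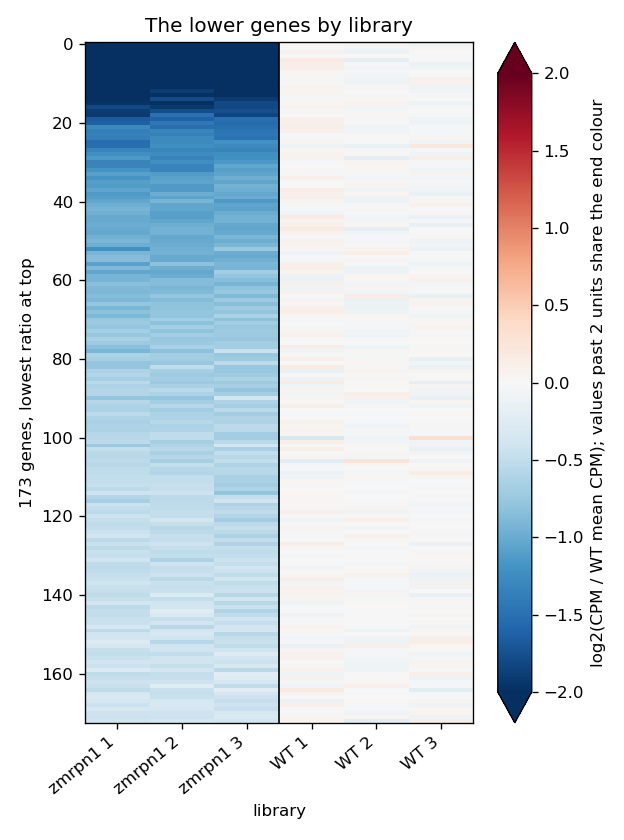
Log2 of CPM over the WT mean CPM for each of the 173 genes (rows, lowest ratio at the top) in the 3 zmrpn1 libraries (left) and 3 WT libraries (right); values past 2 units share the end colour. The zmrpn1 columns look alike from top to bottom, and the median gene stands at 63.8%, 62.7% and 61.7% of the WT mean in them.

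Within zmrpn1 no library held the set apart: replicates 1, 2 and 3 were the lowest of the group for 58, 54 and 61 genes, or 33.5%, 31.2% and 35.3%. Over all genes of the range they were the lowest for 25.4%, 29.5% and 45.1%. Within WT, replicate 1 was the highest library for 84 of the 173 genes, or 48.6%, against 42 genes for replicate 2 and 47 for replicate 3. Over all genes of the range WT replicate 1 was the highest for 29.1% and the lowest for 44.4%. The size of this shift was small, since the median gene of the set stood at 101.9% of its WT mean in WT replicate 1, 99.0% in replicate 2 and 99.1% in replicate 3. Without WT replicate 1 the rule chose 171 genes, 160 of them from the set, with a median of 63.7% of WT.

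A measure that the choice of genes did not use can be had by choosing on 4 libraries and reading the remaining pair. The limits and removed ranges of the rule were kept as they were and not set anew on the 4 libraries. Without replicate 1 of both groups the rule chose 177 genes, and 177 of them were lower in zmrpn1 replicate 1 than in WT replicate 1, with a median of 63.2% of WT. Without replicate 2 it chose 183 genes, of which 183 were lower in the pair left out, with a median of 65.5%. Without replicate 3 it chose 183 genes, of which 182 were lower in the pair left out, with a median of 64.0%. Of the genes in the WT range that were not chosen, 39.2%, 46.6% and 57.1% were lower in the same pairs, with medians of 102.8%, 100.7% and 98.2%.

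The falls were of about the same size in the pairs left out as in the 4 libraries used, where the medians were 64.7%, 64.9% and 64.4% of WT. The pairs were left out of the choice of genes only, since the limits and removed ranges stayed the same. In the pairs left out, 81.4%, 78.7% and 76.0% of the chosen genes were again at or below 77% of WT, against 0.853%, 0.404% and 0.790% of the genes not chosen. The set of 173 shared 157, 162 and 157 genes with these choices. The libraries left out come from the same groups of plants or pools, so this bears on the repeat of the measurement between libraries and not on other plants or mutant lines.

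**Figure D4:**
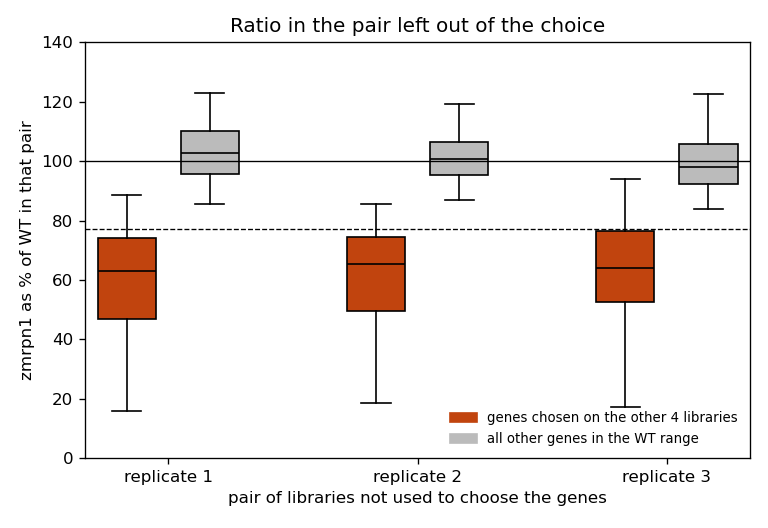
Level in zmrpn1 as a percent of WT in the pair of libraries that was not used to choose the genes, for the genes chosen on the other 4 libraries (orange) and all other genes in the WT range (grey); boxes span the interquartile range, the line is the median and whiskers reach the 5th and 95th percentiles. The orange medians lie at 63.2%, 65.5% and 64.0% of WT for replicates 1, 2 and 3, and the grey medians at 102.8%, 100.7% and 98.2%.

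Leaving out each of the 6 libraries in turn kept 145 of the 173 genes in every choice. Of the 28 genes lost at least once, 25 stood above 70% of WT. The other 3, Zm00001d027924, Zm00001d029371 and Zm00001d044442, had WT means under 22 CPM, near the lower end of the range. Which condition each of the 28 genes failed was not recorded. Just inside the limit of 77% lay Zm00001d006022, Zm00001d003945 and Zm00001d006212, at 76.83%, 76.81% and 76.77% of WT. Just outside it lay Zm00001d016075, Zm00001d014609 and Zm00001d036241, at 77.01%, 77.08% and 77.10%. At the lower end of the WT range Zm00001d020519 and Zm00001d044442 were inside with WT means of 20.02 and 20.2 CPM, while Zm00001d050670 and Zm00001d042608 were outside with 19.5 and 19.2 CPM. At the upper end Zm00001d017622 and Zm00001d016705 were inside with 291 and 255 CPM, while Zm00001d028759 and Zm00001d016588 were outside with 325 and 348 CPM in WT. Zm00001d016660 met the limit at 71.5% of WT but had groups that overlapped, and Zm00001d035346, Zm00001d035356 and Zm00001d035475 met every condition but lay in the second removed range.

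The position of the genes was read from the row order of the table, since no genome of the build used was at hand. All 142 neighbouring pairs of named microRNA precursors that lie on the same chromosome had the order of the reference assembly. That check covers the microRNA rows only. The reference paired 0 of the Zm00001d rows, so whether the rows of the 173 genes follow the genome order was not checked. The 173 genes were spread over the table, apart from the removed identifier ranges, which could hold none by the rule. In those ranges 3 genes met every other condition. In the 10 long runs of rows between breaks in the numbering, they made up between 1.04% and 3.08% of the genes in the WT range (the highest share being 2 of 65 genes in the last run), and no window of 50 tested genes held more than 4. A gene of the set had its nearest other member a median of 46 tested genes away.

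**Figure D5:**
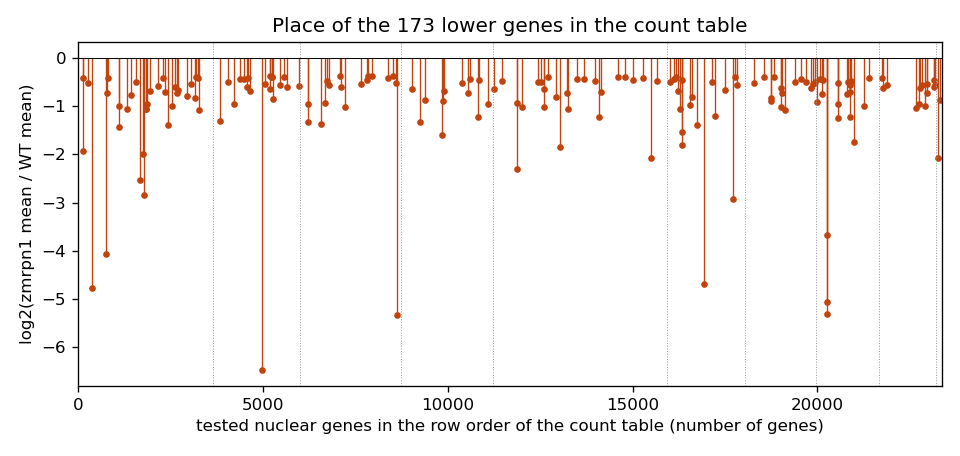
Log2 ratio of the zmrpn1 mean to the WT mean for the 173 genes, placed by the row order of the tested nuclear genes in the count table; dotted lines mark breaks between runs of identifiers. The genes lie along the whole table, and the furthest fall reaches -6.48 log2 units in Zm00001d051938.

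Some of the genes were close neighbours. With another of the set within 10 tested genes there were 34 of the 173, or 19.7%, in 16 groups of which 14 were pairs and 2 held 3 genes. Of the 176 genes chosen by the rule turned upwards, 21, or 11.9%, had another of their own kind within that distance. Directly next to another of the set in the order of tested genes were 12 of the 173, against 2 of the 176. The difference was not tested. Within 50 tested genes the shares were 52.6% and 56.2%.

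Zm00001d002159 and Zm00001d002160 are neighbouring rows that fell together. Zm00001d002159 had 11.1, 13.2 and 15.2 CPM in zmrpn1, against 26.3, 26.7 and 23.5 CPM in WT, or 51.5% of WT. Zm00001d002160 had 9.88, 11.7 and 12.2 CPM in zmrpn1, against 29.4, 28.6 and 27.1 CPM in WT, or 39.7% of WT. In both genes zmrpn1 replicate 1 was the lowest library and zmrpn1 replicate 3 the highest of its group.

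Zm00001d027454 and Zm00001d027455, also neighbouring rows, fell by unequal amounts. Zm00001d027454 had 6.78, 6.43 and 7.62 CPM in zmrpn1, against 27.1, 27.8 and 24.6 CPM in WT, or 26.2% of WT. Zm00001d027455 had 28.3, 23.4 and 25.2 CPM in zmrpn1, against 33.6, 32.0 and 37.3 CPM in WT, or 74.7% of WT. The fourth such pair, Zm00001d052434 and Zm00001d052435, stood at 76.2% and 75.6% of WT, with WT means of 20.5 and 76.0 CPM.

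The groups of 3 genes differed in how even they were. Zm00001d031300, Zm00001d031303 and Zm00001d031315 stood at 48.3%, 48.3% and 51.8% of WT. Zm00001d031300 had 17.9, 19.8 and 19.4 CPM in zmrpn1, against 41.9, 40.3 and 36.0 CPM in WT, and Zm00001d031315 had 31.8, 28.8 and 29.8 CPM in zmrpn1, against 57.4, 60.4 and 56.8 CPM in WT. None of the 6 other tested genes between them was called by edgeR in either direction, and their median log2 change was 0.08. In the other group Zm00001d009103 and Zm00001d009118 stood at 28.6% and 34.6% of WT and Zm00001d009097 at 73.3%. Zm00001d009103 had 27.8, 29.96 and 30.6 CPM in zmrpn1, against 105, 101 and 103 CPM in WT. Of the 4 other tested genes in that stretch edgeR called 0.

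Genes near the set were also read. The rule had screened those in the WT range, and any that met it belong to the set and are missing from the shares below. Genes of the removed identifier ranges were left out of these shares too. Of 3093 tested genes outside the set but within 10 tested genes of it, 165, or 5.33%, were called lower and 203, or 6.56%, were called higher in zmrpn1 (edgeR adjusted p under 0.05). Of 19877 tested genes further away, 4.99% were called lower and 6.61% higher. Among the 333 genes directly next to one of the set, 25 were called lower, or 7.51%, and 16 higher, or 4.80%, with a median log2 change of -0.01. Neighbouring genes are not independent of each other, and the differences between these shares were not tested.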

How the data were processed

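RNA-seq libraries of maize anthers, 3 zmrpn1 and 3 WT, were made with a NEBNext Ultra II kit, per the labels' protocols. Per the submitters' processing notes, the B73 RefGen_v4 build was used with HISAT2 2.2.1, Trimmomatic 0.39, StringTie 1.3.6, featureCounts 1.6.4 and DESeq2; their settings are not stated. The authors deposited whole-number counts per gene with no normalization. Columns were matched to samples by genotype code and replicate number.

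CPM used plain column sums over all 46430 rows. Counts were tested with edgeR 4.0.16 in R 4.3.3 (filterByExpr with minimum count 10, TMM, quasi-likelihood F test with robust dispersion, Benjamini-Hochberg adjustment over 23477 genes), after a run on simulated data. Alternatives were DESeq2 1.42.0, limma-voom (limma 3.58.1), other scalings, filters and rule limits, a replicate block and each library left out. The genes, lists and alternatives were chosen with earlier results of these data known. Positions are ranks among tested nuclear rows. Same-numbered libraries had deviations that correlated at -0.037, 0.020 and 0.031 over all tested genes. No pairing by number was seen, but so few libraries cannot exclude a weak one.

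Named genes were those with the lowest ratios, highest WT levels, widest and narrowest gaps, neighbouring rows and values nearest the limits. The genes at 25% of WT or less and the groups of 3 were added after their values were seen. So were the lost genes at or under 70% of WT and those kept out by overlap or the removed ranges. The 16 gene lists drawn up (anther cell fate, tapetum, meiosis, small RNA, leaf, pollen and 10 by description) could not be used, since 0 members had a name in the count table. Intervals and CVs from counts cover counting error only.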

Additional observations from a re-analysis of the deposited data

How the results depend on the processing

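The number of genes in the set stayed within 1.5 times of 173, from 119 with a limit of 70% of WT to 215 with a limit of 80%, except with a WT range from 10 to 300 CPM, which gave 276. TMM scaling gave 180 and DESeq2 size factors 181, each with all 173 among them. Leaving out 1 library gave 169 to 179 genes and medians of 63.4% to 64.2% of WT, and dropping the same-numbered library from each group gave 177 to 183. Without genes that had another within 10 tested genes the median was 65.0%; this and the neighbour shares were added after seeing the data. edgeR, DESeq2 and limma-voom called 172 or 173 of the genes lower in every fit (172 to 173 with 1 library left out), and 2147 (DESeq2) to 3175 (any count) of all genes. A replicate block in edgeR called 3005 genes, all 173 included, and gave a share of neighbours called lower of 5.399%. That share was 3.48% with DESeq2 (2.64% further away). With 1 library left out it was 3.55% to 5.29%, and calls were fewer at all distances. It was 3.550% without WT replicate 1, against 3.554% further away, and 3.74% without zmrpn1 replicate 1, against 3.94% further away. With any other single library left out the share near the set was the higher. Leaving out 1 library gave 2261 to 2672 called genes in all. Over the 28 named genes and 13 fits, 355 of 364 values kept their direction and side of the threshold; Zm00001d032030 passed it in 8 fits, and Zm00001d020037 missed it without WT replicate 1 (log2 change -0.27, edgeR adjusted p = 0.105). The cause was not tested. Genes at the low end rest on few counts, 39 over the zmrpn1 libraries for Zm00001d051938.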
